A study of Sus scrofa with 12 samples.

Results

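Toll-like receptors are membrane proteins that bind microbial molecules and products of damaged tissue. CD14 is a co-receptor that hands ligands to several of them, and MYD88 is the adaptor protein that most of them use to start signalling toward nuclear factor kappa B and inflammatory genes. The genes described here were those of a list of 10 names, TLR1 to TLR8, CD14 and MYD88, that the authors' deposited comparison table gives as a gene name. That table names 9 of the 10, out of 25880 genes in the count table, and TLR5 is absent as a name. The family was chosen by earlier results of these same libraries, with the difference and adjusted p of TLR2 known, so every value of these genes in that comparison describes them and is no independent test.

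RNA from the striatum, a deep forebrain region, was sequenced from 12 newborn piglets. The 6 piglets of the DHCA group were anaesthetised with 4% isoflurane, put on cardiopulmonary bypass after a sternotomy and cooled, went through 30 min of circulatory arrest at 18 °C. Bypass then brought them back to 37 °C, and the recovery period was 6 h. The 6 Sham piglets were kept under 4% isoflurane, which is all that the labels say both groups shared, and neither a breed nor a recovery time for Sham is stated. The comparison therefore sets surgery, bypass, cooling, arrest, rewarming and the 6 h recovery together against anaesthesia.

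Library totals ranged from 5434652 to 9997400 counts in DHCA and from 1377809 (Sham 5) to 12933536 counts in Sham. Sham 1, with 2515816 counts, and Sham 5 were the shallowest, and 1 count was worth far more CPM there: 1 CPM (counts per 1e+06 counts after TMM scaling, the unit used for all levels below) stood for 2.58 counts in Sham 1 and 1.50 counts in Sham 5, against 4.85 to 13.7 counts in the other libraries. All 8 markers of striatal neurons had counts. Their summed level was 2205 to 4036 CPM in DHCA and 894 to 4951 CPM in Sham, with the lowest value in Sham 4.

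In mammals, TLR2 pairs with TLR1 or TLR6 to sense bacterial lipoproteins, TLR4 senses lipopolysaccharide together with CD14 and the small protein LY96, and TLR5 senses flagellin. TLR3, TLR7, TLR8 and TLR9 sit in endosomes and sense nucleic acids. In brain, microglia, the resident macrophages, are the best known source of these receptors, and astrocytes and endothelial cells can express some of them. TLR3 signals through the adaptor TICAM1 and does not need MYD88.

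TLR2 had the largest fold change of the tested members, while the differences of CD14 and MYD88 in CPM were somewhat larger. It was at 12.2, 13.9, 13.5, 14.6, 9.51 and 16.1 CPM in DHCA 1 to 6, against 5.82, 4.33, 2.97, 2.42, 2.00 and 7.03 CPM in Sham 1 to 6. All 6 DHCA libraries lay above all 6 Sham libraries, a separation with DHCA above that 0.678% of all tested genes showed. The mean was 13.3 ± 2.26 CPM in DHCA and 4.09 ± 2.01 CPM in Sham (SD, n = 6 each). In the edgeR quasi-likelihood fit across 14004 genes its log2 fold change was 1.64 (SE 0.28, 3.12-fold), with adjusted p = 0.0323, and it ranked 17 by p among all tested genes.

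Of the 9 members, 7 passed the filter on low counts and were tested, and 1 of these, TLR2, had an adjusted p under 0.05. Across all tested genes 0.186% did, 26 genes in all, with 19 (0.136%) higher and 7 (0.05%) lower in DHCA. Without adjustment, 4 members had a p under 0.05, all with higher levels in DHCA (TLR2, CD14, MYD88 and TLR4). That p was reached by 7.9% of all tested genes, 3.43% higher and 4.47% lower in DHCA. The median log2 fold change of the 7 tested members, 4 positive and 3 negative, was 0.81, which is the value of TLR4. It was -0.0030 for all tested genes. TLR5, on the list but dropped for want of a named row, had -0.19 and would lower the members' median.

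**Figure D1:**
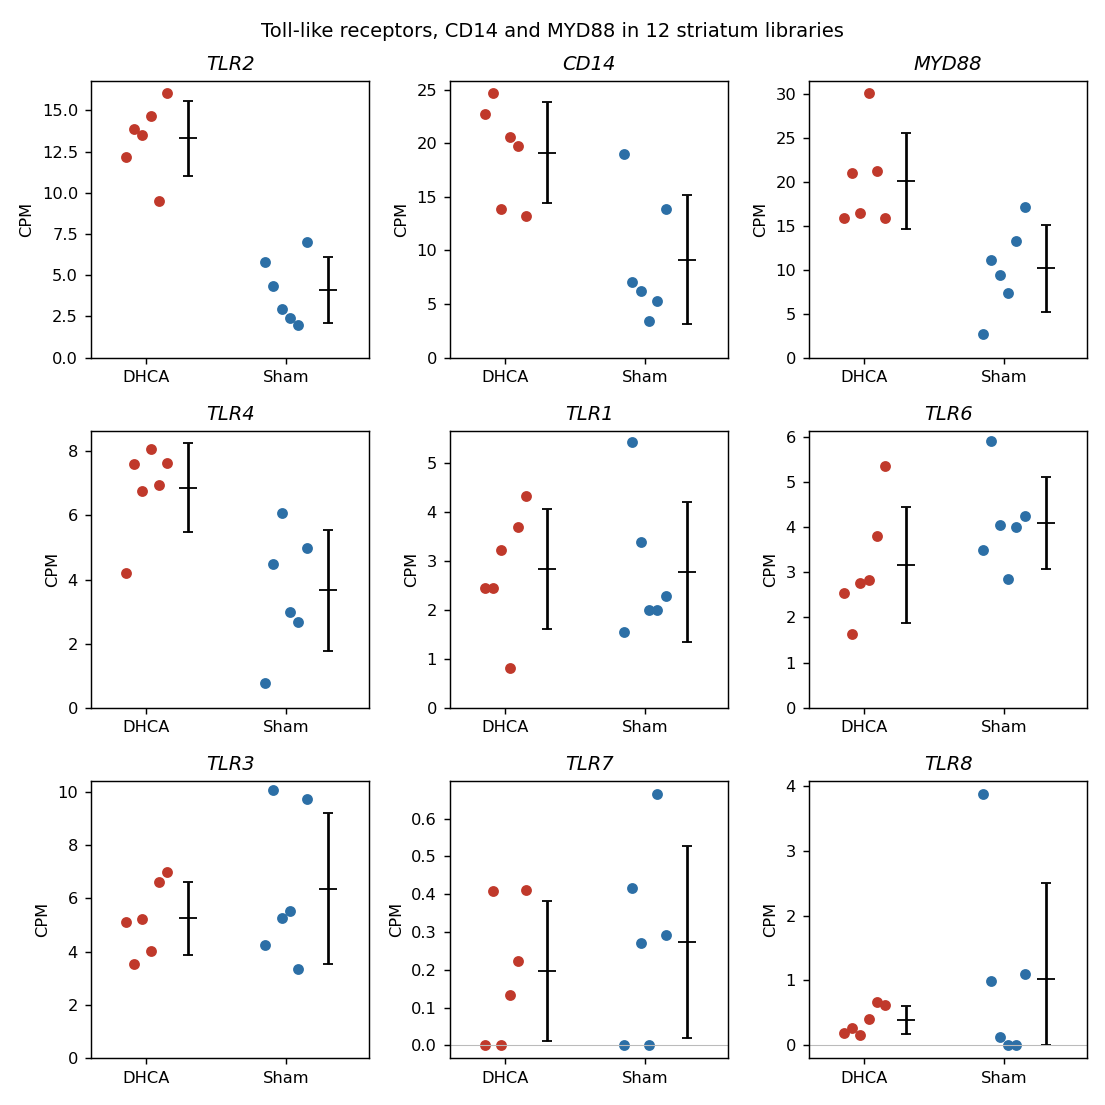
Levels of the 9 genes in CPM (vertical axis, a separate scale per gene) in the 6 DHCA and 6 Sham libraries. Each point is 1 library and the bar gives the mean and SD, cut at 0. For TLR2 the lowest DHCA library, at 9.51 CPM, lay above the highest Sham library, at 7.03 CPM, while for each of the other genes the groups overlapped.

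The TLR2 call depended on which libraries entered the fit. It was kept in 4 of the 12 fits that left out 1 library, those without DHCA 5, Sham 1, Sham 2 or Sham 6, and lost without DHCA 1, 2, 3, 4 or 6 or Sham 3, 4 or 5, with edgeR adjusted p from 0.0108 to 0.105 over the 12. The log2 fold change stayed between 1.50 and 1.91 in these fits. Without Sham 1 and Sham 5 it was 1.63 (adjusted p = 0.0785), and without Sham 1, Sham 4 and Sham 5 it was 1.44 (adjusted p = 0.184). The DESeq2 Wald test, which called 1.24% of genes (0.758% higher), gave 1.64 (adjusted p = 1.0e-05). In simulated data this test made 25 false calls, against 4 for edgeR. The limma-voom fit, which called 0.193% (0.164% higher), gave 1.66 (adjusted p = 0.0253). In the authors' deposited table TLR2 has a log2 fold change of 1.71 with a standard error of 0.24 and an adjusted p of 1.52e-09. That table does not state the direction of its fold changes, and its test statistic has the opposite sign to the fold change in all 21223 rows. The sign of the fold changes was that of DHCA minus Sham here for 7 of 7 tested members and for 96.0% of the 14004 genes in both tables.

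**Figure D2:**
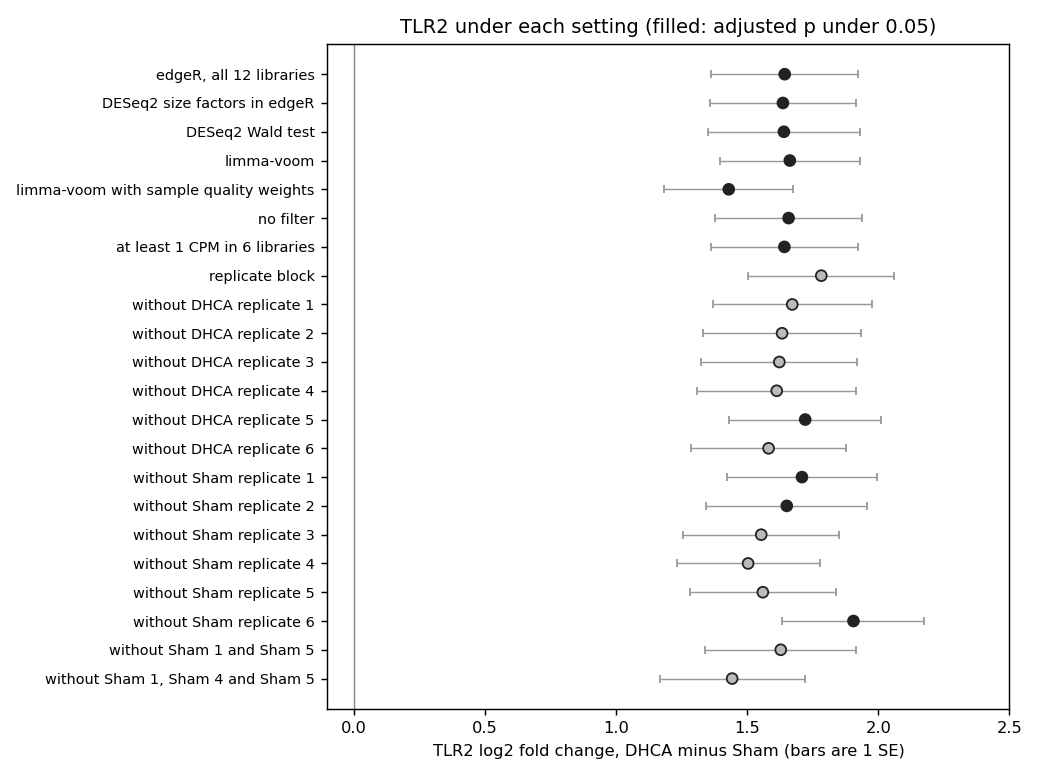
TLR2 log2 fold change, DHCA minus Sham (horizontal axis), with 1 SE, under each setting (vertical axis). Filled points have an adjusted p under 0.05. The value lies between 1.43 and 1.91 in every setting shown, and the open points are those that lost the call.

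For TLR1 and TLR6, the partners of TLR2, no difference between the groups passed the test. TLR1 was at 2.45, 2.45, 3.23, 0.806, 3.69 and 4.33 CPM in DHCA 1 to 6, against 1.55, 5.41, 3.37, 1.99, 2.00 and 2.27 CPM in Sham 1 to 6. The ranges overlapped almost fully, with the lowest value in DHCA 4 and the highest in Sham 2. Its log2 fold change was -0.067 (SE 0.38, edgeR adjusted p = 0.974), and the sign turned without DHCA 4 or without Sham 2. Without Sham 1, Sham 4 and Sham 5 it was -0.41.

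TLR6 was at 2.55, 1.63, 2.77, 2.82, 3.81 and 5.36 CPM in DHCA 1 to 6, against 3.49, 5.91, 4.04, 2.84, 3.99 and 4.25 CPM in Sham 1 to 6. Here 4 DHCA libraries lay below all Sham libraries and DHCA 6 was above all but 1 of them. The log2 fold change was -0.41 (SE 0.29, edgeR adjusted p = 0.784), and -0.62 without Sham 1, Sham 4 and Sham 5. Per kb of exon, the ratio of TLR2 to TLR6 within a library was 2.53 to 8.61 in DHCA (median 4.89) and 0.506 to 1.69 in Sham (median 0.802). TLR2 exceeded TLR6 in every DHCA library and the ranges did not overlap. Since TLR2 in CPM already separated the groups, this in part restates that difference. The share of all gene pairs whose ratio separates the groups was not computed. The ratio of TLR2 to TLR1 was 1.55 to 10.9 in DHCA (median 2.75) and 0.481 to 2.25 in Sham (median 0.665), with overlap.

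TLR1 and TLR6 overlap on the minus strand of chromosome 8 (Sscrofa11.1), TLR1 (ENSSSCG00000026583) from 30147588 to 30180651 and TLR6 (ENSSSCG00000026592) from 30159780 to 30180655. The annotation in the count table gives them a shared exon of 59 bases, 2.05% of the exon length of TLR1 and 1.21% of that of TLR6. The counting command sets no option for reads that overlap more than 1 gene, and such reads are left out by default in featureCounts. Reads from stretches where these closely related genes are alike can also be lost or misplaced, so the split between TLR1 and TLR6 is uncertain. TLR2 (ENSSSCG00000009002) lies apart from them on the minus strand of the same chromosome, from 75416028 to 75428330, and its 4798 exon bases overlap no other gene.

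CD14 and TLR4, of the lipopolysaccharide receptor, had higher mean levels in DHCA, but neither passed the threshold. CD14 (ENSSSCG00000014369, chromosome 2, 142346211 to 142349349) was at 22.7, 24.7, 13.8, 20.6, 19.7 and 13.2 CPM in DHCA 1 to 6, against 19.0, 7.07, 6.20, 3.41, 5.33 and 13.9 CPM in Sham 1 to 6. Sham 1 and Sham 6 reached into the DHCA range and the other 4 Sham libraries lay below it. The mean was 19.1 ± 4.69 CPM in DHCA and 9.15 ± 6.00 CPM in Sham (SD, n = 6 each), with a log2 fold change of 1.08 (SE 0.35, edgeR adjusted p = 0.384).

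Without Sham 1 and Sham 5 the CD14 log2 fold change was 1.30 (SE 0.34, edgeR adjusted p = 0.229). Of the tools tried, limma-voom with sample quality weights called it (1.19, SE 0.26, adjusted p = 0.0381), where 1.48% of genes were called, 0.921% higher. The authors' deposited table gives CD14 a log2 fold change of 1.22 with a standard error of 0.30 and an adjusted p of 0.00975, in a fit that calls 1.29% of its genes with an adjusted p.

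TLR4 (ENSSSCG00000005503, chromosome 1, 258044435 to 258055522) was at 4.22, 7.61, 6.76, 8.06, 6.94 and 7.63 CPM in DHCA 1 to 6, against 0.775, 4.49, 6.07, 2.98, 2.66 and 4.98 CPM in Sham 1 to 6. Of the DHCA libraries 5 lay above all of Sham, and DHCA 1 lay below 3 of the Sham libraries. The log2 fold change was 0.81 (SE 0.32, edgeR adjusted p = 0.532). The Sham 1 value stands on 2 counts, and the log2 fold change was 0.56 without Sham 1 and Sham 5, 0.41 without Sham 4 as well, and 0.29 with sample quality weights. LY96, which TLR4 needs to bind lipopolysaccharide, was too low to test, with 29 counts over the 6 DHCA libraries (0.640 CPM) and 34 over the 6 Sham libraries (0.769 CPM).

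MYD88 (ENSSSCG00000011251, chromosome 13, 22974344 to 22981204, plus strand) was at 15.9, 21.1, 16.4, 30.1, 21.3 and 15.9 CPM in DHCA 1 to 6, against 2.71, 11.1, 9.44, 7.39, 13.3 and 17.1 CPM in Sham 1 to 6. The groups overlapped only through Sham 6, which lay above 3 of the DHCA libraries. The mean was 20.1 ± 5.50 CPM in DHCA and 10.2 ± 4.96 CPM in Sham (SD, n = 6 each), with a log2 fold change of 0.96 (SE 0.32, edgeR adjusted p = 0.375). It was 0.64 with sample quality weights and 0.67 without Sham 1, Sham 4 and Sham 5. The authors' deposited table gives MYD88 a log2 fold change of 1.01 with a standard error of 0.31 and an adjusted p of 0.0696.

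The MYD88 gene model shares 2276 of its 5140 exon bases (44.3%) with ACAA1, a peroxisomal enzyme gene annotated on the other strand. Counting set no strand option, so reads from the shared bases cannot be given to either gene. ACAA1 itself was at 29.5 ± 7.46 CPM in DHCA and 30.3 ± 6.35 CPM in Sham (SD, n = 6 each), with a log2 fold change of -0.025 (SE 0.20, edgeR adjusted p = 0.985). Over its unshared exons alone the level of MYD88 was 7.02 CPM per kb in DHCA and 3.55 in Sham, while over all its exons it was 3.91 in DHCA and 1.98 in Sham.

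Among the receptors of nucleic acids, TLR3 (ENSSSCG00000015801, chromosome 15, 46966079 to 46978023), which senses double-stranded RNA, was at 5.10, 3.53, 5.22, 4.03, 6.60 and 7.01 CPM in DHCA 1 to 6. In Sham 1 to 6 it was at 4.27, 10.1, 5.26, 5.54, 3.33 and 9.74 CPM. Sham 2 and Sham 6 were above all of DHCA and the other Sham libraries lay among or just below it. Its log2 fold change was -0.35 (SE 0.29, edgeR adjusted p = 0.811), and -0.69 without Sham 1, Sham 4 and Sham 5.

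TLR7 (ENSSSCG00000012117) and TLR8 (ENSSSCG00000012118), both sensors of single-stranded RNA, are neighbours on chromosome X and failed the filter on low counts. TLR7 had 0, 3, 0, 1, 2 and 2 counts in DHCA 1 to 6, against 0, 5, 2, 0, 1 and 4 counts in Sham 1 to 6. A count of 0 allows up to 0.294 CPM in DHCA 1 and 1.16 CPM in Sham 1, for counting error only (3 counts of the library). Of its 7464 exon bases, 68.6% are shared with PRPS2, an enzyme gene of nucleotide synthesis annotated on the same strand, so its low count alone cannot be read as a low level. Over its unshared exons TLR7 was at 0.0839 CPM per kb in DHCA and 0.117 in Sham. TLR6 was higher on that scale, at 0.657 in DHCA and 0.851 in Sham. TLR8 had 2, 2, 1, 3, 6 and 3 counts in DHCA 1 to 6, against 10, 12, 1, 0, 0 and 15 counts in Sham 1 to 6. A difference between the groups was not detectable at this depth for either gene.

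The other receptors of the family, named from a reference table of pig gene IDs or outside the list, fell on both sides of 0. TLR5 was at 11.3 ± 2.98 CPM in DHCA and 12.8 ± 2.43 CPM in Sham (SD, n = 6 each), with a log2 fold change of -0.19 (SE 0.21, edgeR adjusted p = 0.836). TLR9, a sensor of unmethylated DNA, was at 9.18 to 15.2 CPM in DHCA and 2.84 to 13.1 CPM in Sham, with a log2 fold change of 0.53 (SE 0.31, edgeR adjusted p = 0.753). TLR10, beside TLR1 on chromosome 8, had 16 counts over the DHCA libraries and 39 over the Sham libraries and was not tested.

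Levels of different genes were compared per kb of exon, in CPM per kb. In DHCA the order of the members was CD14 (6.25 ± 1.53), MYD88 (3.91 ± 1.07), TLR2 (2.77 ± 0.471), TLR3 (1.53 ± 0.399), TLR4 (1.48 ± 0.299), TLR1 (0.980 ± 0.426), TLR6 (0.649 ± 0.264), TLR8 (0.0534 ± 0.0303) and TLR7 (0.0263 ± 0.0249). In Sham it was CD14 (2.99 ± 1.96), MYD88 (1.98 ± 0.965), TLR3 (1.85 ± 0.830), TLR1 (0.959 ± 0.497), TLR2 (0.853 ± 0.418), TLR6 (0.841 ± 0.211), TLR4 (0.790 ± 0.409), TLR8 (0.141 ± 0.206) and TLR7 (0.0367 ± 0.0341), all as mean and SD of 6 libraries. TLR2 was thus in place 3 of 9 in DHCA, above TLR3 in 6 of 6 libraries, and in place 5 in Sham, where it differed from TLR1, TLR6 and TLR4 by less than the SDs.

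Among neighbours in the order of the 9 members, the bands of mean ± SD were apart for TLR2 above TLR3 and TLR6 above TLR8 in DHCA, and for TLR4 above TLR8 in Sham. The bands of the other neighbours overlapped, and TLR3 and TLR4 differed by less than their SDs in DHCA. TLR5, on the list but dropped for want of a named row, came next after CD14 in DHCA (4.38 ± 1.16). It was the highest of the 12 genes in Sham (4.97 ± 0.948). Over unshared exons MYD88 came first of the 9 members in both groups. On that scale TLR7 was at 0.0839 CPM per kb in DHCA and 0.117 in Sham, so in DHCA it stood above TLR8, and the last place of TLR7 above is not firm.

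**Figure D3:**
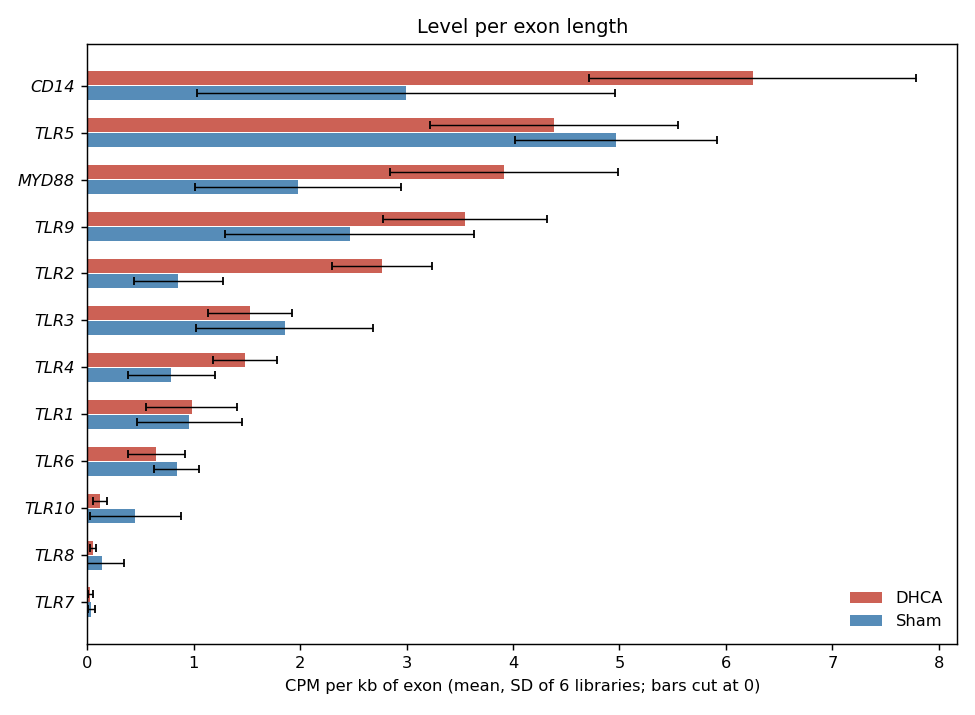
Mean level in CPM per kb of exon (horizontal axis) of the 9 members and of TLR5, TLR9 and TLR10 (vertical axis), in DHCA and Sham libraries, with the SD of 6 libraries. TLR2 averaged 2.77 in DHCA and 0.853 in Sham, while TLR1 averaged 0.980 in DHCA and 0.959 in Sham.

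Since microglia are the best known source of these receptors, the members were set beside 12 microglial markers found in the table, of 14 listed (TMEM119 and ITGAM had no named row). In bulk tissue fewer cells of a type and less RNA per cell cannot be told apart. The markers' summed level was 295, 297, 240, 360, 324 and 343 CPM in DHCA 1 to 6, against 428, 345, 370, 250, 414 and 420 CPM in Sham 1 to 6. The mean difference on the log2 scale was -0.25 (exact 2-sided permutation test, p = 0.126, smallest possible 0.00216, or p = 0.377 adjusted over 9 marker lists). With 1 library left out, the exact p was under 0.05 in 1 of 12 cases, without Sham 4 (-0.36, exact p = 0.00866). It ranged up to 0.24 in the others. Without Sham 1 and Sham 5 the difference was -0.15 (exact p = 0.39). Of the 12 markers 3 had a positive and 9 a negative fold change, 0 of them called. The median log2 fold change of the 12 was -0.21. The most negative, at -1.26, was that of CX3CR1, a chemokine receptor of resting microglia, at 9.10 ± 4.01 CPM in DHCA and 21.3 ± 11.3 CPM in Sham (SD, n = 6 each, edgeR adjusted p = 0.365). The 3 positive ones were those of GPR34 (0.39), C1QB (0.18) and C1QC (0.024).

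Per 100 CPM of microglial markers, TLR2 stood at 2.93 to 5.64 CPM in DHCA (median 4.39) and 0.482 to 1.67 CPM in Sham (median 1.11), with no overlap. MYD88 stood at 4.62 to 8.36 CPM in DHCA (median 6.71) and 0.633 to 4.08 CPM in Sham (median 3.09), also with no overlap. On this scale 1.26% of all tested genes had all DHCA libraries above all Sham libraries, against 0.678% per library total. CD14 stood at 3.84 to 8.33 CPM in DHCA (median 5.92) and 1.29 to 4.43 CPM in Sham (median 1.86), and 5 of the DHCA libraries were above all of Sham. TLR4 stood at 1.43 to 2.82 CPM in DHCA (median 2.23) and 0.181 to 1.64 CPM in Sham (median 1.19), again with 5 DHCA libraries above all of Sham. For TLR1, TLR3 and TLR6, 0 DHCA libraries were above all of Sham on this scale. Counted the same way per library, 6 DHCA libraries were above all of Sham for TLR2, 3 for MYD88, 4 for CD14 and 5 for TLR4.

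**Figure D4:**
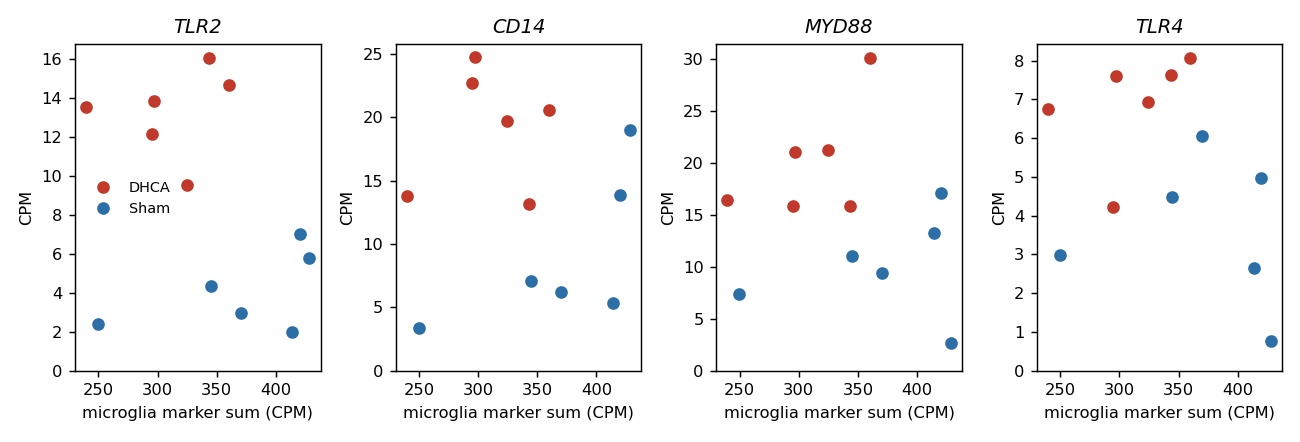
Level of TLR2, CD14, MYD88 and TLR4 in CPM (vertical axes) against the summed level of 12 microglial markers in CPM (horizontal axis), 1 point per library. The DHCA points for TLR2, at 9.51 to 16.1 CPM, lie above the Sham points, and the marker sums span 240 to 360 CPM in DHCA, against 250 to 428 CPM in Sham.

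Across the 12 libraries no member had an adjusted p under 0.05 for its relation to the marker sum. Pearson's r ran from -0.36 (TLR4) to 0.49 (TLR6), with a smallest adjusted permutation p of 0.714 over the 7 tested members, and Spearman's rho from -0.31 (TLR2) to 0.53 (TLR6), with a smallest adjusted p of 0.541. Without the 2 libraries farthest from the median marker sum, DHCA 3 and Sham 4, r was 0.46 for TLR6 and -0.59 for TLR2. The result depended on how the markers were summarised. With the mean of their log2 CPM, which gives low and high markers equal weight, TLR6 had r = 0.83 (permutation p = 0.00053, adjusted p = 0.00371) and rho = 0.88 (adjusted p = 0.00252).

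This relation of TLR6 was r = 0.84 without the 2 libraries farthest from the median, DHCA 2 and Sham 6, and 0.80 with group means removed (permutation within groups, adjusted p = 0.00329). TLR3 had r = 0.70 (adjusted p = 0.0429) and rho = 0.66 (adjusted p = 0.0852) by that summary, and r = 0.53 without the same libraries. TLR2 had r = -0.30 (adjusted p = 0.469). The relation is across libraries that differ in depth and tissue makeup, and their part in it was not tested.

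Markers of white blood cells were low, and so were those of red cells other than HBB. HBB averaged 39.0 CPM in DHCA and 121 CPM in Sham. ALAS2 averaged 2.41 CPM in DHCA and 5.00 CPM in Sham, and AHSP 0.313 CPM in DHCA and 0.543 CPM in Sham. The 9 neutrophil markers found, of 10 listed (CXCR2 had no named row), summed to 5.82 to 12.4 CPM in DHCA and 3.70 to 11.2 CPM in Sham (mean log2 difference 0.50, exact permutation p = 0.0996). Of these 1 was tested, CSF3R, at 3.35 ± 1.10 CPM in DHCA and 2.13 ± 1.24 CPM in Sham (SD, n = 6 each), and MPO had 6 counts in all 12 libraries. Markers of monocytes and border macrophages (6 of 7 found) summed to 7.20 to 13.6 CPM in DHCA and 2.66 to 10.7 CPM in Sham (mean log2 difference 0.49, exact permutation p = 0.219). Red cell markers (3 of 4 found) summed to 26.3 to 65.7 CPM in DHCA and 33.0 to 240.2 CPM in Sham (mean log2 difference -1.45, exact permutation p = 0.0152, 0.136 adjusted over the 9 lists). None of the listed markers found was at 0 in all libraries, and their part in the levels of the receptors was not tested.

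Members were also compared with each other after removal of the group means, which takes the DHCA against Sham difference out. Of 21 pairs of the 7 tested members 0 passed adjustment over the pairs (smallest adjusted permutation p = 0.228), and 3 had an unadjusted p under 0.05 for r. TLR3 and TLR6 had r = 0.65 (permutation p = 0.0108) and rho = 0.64 (permutation p = 0.0278), and r was 0.63 without Sham 2 and Sham 6. TLR4 and MYD88 had r = 0.79 (permutation p = 0.034) and rho = 0.54 (permutation p = 0.103), and r was 0.57 without Sham 1 and Sham 3. TLR1 and TLR3 had r = 0.62 and rho = 0.66 (permutation p = 0.0283 for each), and r was 0.54 without DHCA 4 and Sham 2. CD14 and MYD88 had r = -0.23, and 0.78 without Sham 1 and Sham 5.

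The genes most like TLR2 over the 12 libraries, by Pearson's r of log2 CPM among 12736 genes with a symbol and at least 1 CPM, are given as a description and include the group difference. They were TGM3, a transglutaminase (r = 0.97), TMEM100, a transmembrane protein of endothelium (0.97), RHOJ (0.96), PIK3AP1, an adaptor of phosphoinositide 3-kinase (0.95), and FKBP5, a chaperone gene induced by glucocorticoids (0.94). With group means removed the r values were 0.87, 0.92, 0.86, 0.72 and 0.76 in the same order. TMEM100 was at 64.2 ± 7.12 CPM in DHCA and 31.6 ± 13.1 CPM in Sham, and RHOJ at 28.1 ± 4.72 CPM in DHCA and 14.7 ± 4.04 CPM in Sham (SD, n = 6 each).

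For CD14 the 5 most similar were RTL9 (r = 0.93), ETS2, a transcription factor (0.92), NET1 (0.92), MT1A, a metallothionein (0.91), and TLR9 (0.91). With group means removed CD14 and TLR9 had r = 0.89.

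Downstream of the receptors, 0 genes of the adaptor, inhibitor, target, ligand, co-receptor and interleukin 1 receptor lists passed the edgeR threshold, and each list is described by its counts. Among adaptors and kinases 25 of 27 were tested, 14 with a positive and 11 with a negative log2 fold change, and 4 had an unadjusted p under 0.05, all of them higher in DHCA, against 3.43% of all tested genes. The list's median was 0.056. TICAM2, which links TLR4 to the interferon arm, was at 4.39 ± 2.62 CPM in DHCA and 1.47 ± 0.950 CPM in Sham (log2 fold change 1.47, SE 0.47, edgeR adjusted p = 0.369). IRAK2, a kinase that binds MYD88, was at 32.7 ± 5.37 CPM in DHCA and 19.1 ± 6.66 CPM in Sham (0.77, SE 0.25, adjusted p = 0.369). All 6 DHCA libraries (27.0 to 41.2 CPM) lay above all 6 Sham libraries (7.39 to 26.4 CPM), as for 0.678% of all tested genes. IRAK2 is named here for its small p. MAP3K8, a kinase between nuclear factor kappa B and MAP kinases, was at 13.7 ± 2.24 CPM in DHCA and 7.71 ± 3.85 CPM in Sham (0.82, SE 0.27, adjusted p = 0.397).

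Inhibitors of the pathway had 12 of 15 members tested, 9 positive and 3 negative, with a median of 0.14. ATF3, a repressor of inflammatory genes, was at 8.31 ± 7.09 CPM in DHCA and 2.28 ± 1.49 CPM in Sham (log2 fold change 1.89, SE 0.62, edgeR adjusted p = 0.375). IRAK3, which blocks the MYD88 complex, was at 12.2 ± 0.631 CPM in DHCA and 8.25 ± 2.63 CPM in Sham (0.52, SE 0.20, adjusted p = 0.486). PELI1, a ubiquitin ligase, had 0.43 (SE 0.29, adjusted p = 0.781).

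Target genes had 10 of 22 listed genes tested, 9 with a positive and 1 with a negative log2 fold change, and a median of 0.82, and 6 had an unadjusted p under 0.05, all of them higher in DHCA, against 3.43% of all tested genes. The filter on low counts can be passed through 1 group alone. A gene near the floor in Sham was tested only if higher in DHCA, and the reverse held for a gene near the floor in DHCA. For lists with genes low in Sham, the counts can therefore lean toward DHCA. Over all tested genes 6935 had a positive and 7069 a negative log2 fold change. CXCL10, a chemokine, was at 2.47 to 189.9 CPM in DHCA and 0.388 to 8.24 CPM in Sham (log2 fold change 4.70, SE 0.95, edgeR adjusted p = 0.0704). SOD2, a mitochondrial antioxidant enzyme, was at 143 ± 18.7 CPM in DHCA and 74.4 ± 28.0 CPM in Sham (0.93, SE 0.23, adjusted p = 0.179). Its range was 119 to 176 CPM in DHCA and 38.0 to 113 CPM in Sham, with no overlap. Such a separation with DHCA above was shown by 0.678% of all tested genes, and SOD2 is named here for its small p. TNFAIP6, a secreted hyaluronan-binding protein, was at 4.15 ± 1.65 CPM in DHCA and 1.64 ± 0.720 CPM in Sham (1.26, SE 0.35, adjusted p = 0.244).

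The classical cytokine targets with a named row were near the floor. IL1B and IL1RN had no named row, so their levels are not known here. TNF had 13 counts over the 6 DHCA libraries and 21 over the 6 Sham libraries, IL6 had 40 in DHCA and 40 in Sham, and IL1A had 10 in DHCA and 14 in Sham. The chemokine gene CXCL8 had 30 counts in DHCA and 19 in Sham. None of these 4 was tested, and a difference was not detectable at this depth. The chemokine gene CCL2, of the same list and also untested, was not as low in DHCA. It had 325 counts there (5 to 157 a library) and 38 in Sham (0 to 35 a library).

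Ligands made by the tissue had 6 of 12 listed genes tested, 1 positive and 5 negative, with a median of -0.058. HSPD1, a mitochondrial chaperone, was at 110 ± 7.88 CPM in DHCA and 118 ± 21.1 CPM in Sham (log2 fold change -0.11, SE 0.15, edgeR adjusted p = 0.86). DCN, a small proteoglycan, had -0.25 (SE 0.36, adjusted p = 0.867), and VCAN, a large one, had 0.13 (SE 0.28, adjusted p = 0.919). HMGB1, HSPA1A and SAA3 had no named row.

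Co-receptors and chaperones had 6 of 9 listed genes tested, 2 positive and 4 negative, with a median of -0.19. CNPY3, a chaperone that the receptors need to reach the surface, was at 22.3 ± 4.46 CPM in DHCA and 30.3 ± 8.66 CPM in Sham (log2 fold change -0.42, SE 0.22, edgeR adjusted p = 0.708). LBP, which carries lipopolysaccharide to CD14, had -0.34 (SE 0.31, adjusted p = 0.821), and CD180, a relative of TLR4, had 0.49 (SE 0.46, adjusted p = 0.823). Of the interleukin 1 family receptors that also use MYD88, 2 of 5 were tested. IL1R1, the interleukin 1 receptor, was at 6.99 ± 1.55 CPM in DHCA and 2.61 ± 2.61 CPM in Sham (1.51, SE 0.42, adjusted p = 0.244), and its partner IL1RAP had -0.15 (SE 0.38, adjusted p = 0.932).

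**Figure D5:**
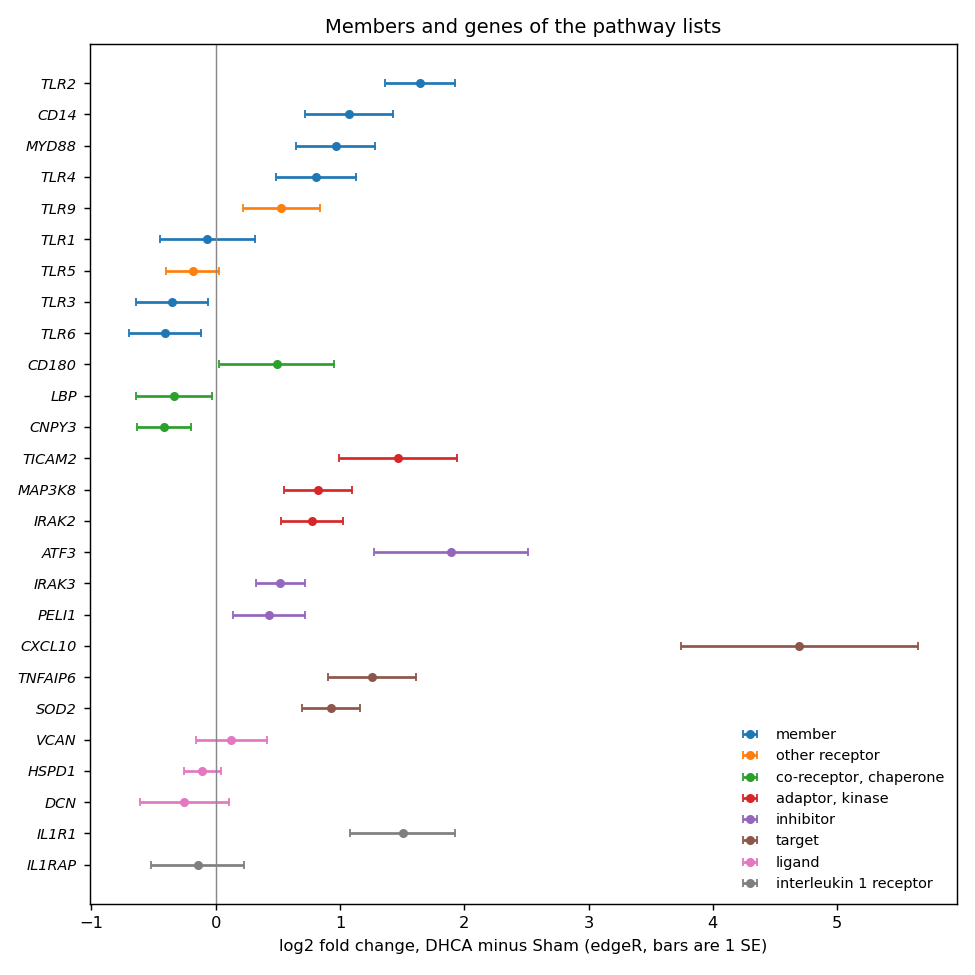
Log2 fold change, DHCA minus Sham, with 1 SE (horizontal axis), of the 7 tested members, of TLR5 and TLR9, and of the genes with the smallest p in each pathway list, up to 3 a list (vertical axis, colour by list). TLR2 at 1.64 is the only gene shown with an adjusted p under 0.05, and CXCL10 at 4.70 has the widest error.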

How the data were processed

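RNA was isolated with RNeasy columns, made into TruSeq libraries and sequenced on a HiSeq instrument, per the labels' protocols. The authors deposited raw counts per Ensembl gene, made with featureCounts 1.5.1 over exons of Sscrofa11.1, per the file headers. No source used here names the aligner. Of the library columns 12 matched the samples, and 6 others were not used. The authors' deposited table, for which the submitters' processing notes name DESeq2, holds a mean normalized signal, log2 fold changes, a test statistic (a score, not used) and p-values. Which libraries entered it is not given.

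Counts were analysed in R 4.3.3 with edgeR 4.0.16 (filterByExpr, TMM, robust quasi-likelihood F test, group as the only term, Benjamini-Hochberg over 14004 genes, threshold 0.05). DESeq2 1.42.0 and limma 3.58.1 were alternatives. SE came from the F statistic. Correlations used log2 CPM (prior count 2) and 100000 permutations. In simulated data of this DHCA against Sham comparison (14004 genes, 200 changed), edgeR found 39% of the 2-fold and 90% of the 4-fold changes, with 4 false calls. DESeq2 found 57% and 93% of them, with 25 false calls, and limma-voom 37% and 90%, with 4 false calls.

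Members and lists were chosen with earlier results of these data known. Named were all members, the 3 genes of smallest p in each list, the markers summed and the 5 genes most like TLR2 or CD14. Genes named outside this rule (TLR5, a listed name without a named row, TLR10, LY96, ACAA1, PRPS2 and the genes too low to test) were chosen after their values were seen. No library pair of a group looked like a repeat deposit: chi-square over degrees of freedom, for genes with at least 10 counts, was 8.50 to 125.8. Sequences were not used here.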

Additional observations from a re-analysis of the deposited data

Results flagged for a closer look

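Of 42 groups of 6 libraries checked for a single library far from the rest (the members, TLR5, TLR9 and TLR10, and 9 marker sums, in each group), 4 had one, and chance flags about 1 in 20. TLR4 in DHCA was lowest in DHCA 1, at 4.22 CPM, with the next at 6.76 and the highest at 8.06 CPM. TLR8 in Sham was highest in Sham 1, at 3.88 CPM from 10 counts, with the next at 1.10 CPM. The lymphocyte marker sum in Sham was highest in Sham 1, at 21.3 CPM, with the next at 9.32 and the lowest at 3.55 CPM. The oligodendrocyte marker sum in DHCA was highest in DHCA 3, at 64145.5 CPM, with the next at 25135.4 CPM.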

How the results depend on the processing

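The count of called genes was 26, and 181 with the DESeq2 Wald test, 207 with sample quality weights, 8 with a replicate block, 6 at a threshold of 0.01, 12 without Sham 1 and Sham 5, 1 without Sham 1, Sham 4 and Sham 5 (both chosen after the data had been seen) and 9 to 51 without 1 library. Of the members 1 was called, 2 with sample quality weights (TLR2 and CD14), 0 with the replicate block (TLR2 adjusted p = 0.0685), 0 at 0.01, 0 in both fits without several Sham libraries, and 0 to 1 without 1 library. Each of the 7 members kept its sign in all alternatives, except TLR1 (-0.21 to 0.28 without 1 library), at 0.12 without DHCA 4 and 0.28 without Sham 2. The microglia marker difference was -0.36 to -0.18 without 1 library and -0.15 without Sham 1 and Sham 5. With the mean of the markers' log2 CPM, r with the markers was 0.49 for TLR1, 0.70 for TLR3, 0.25 for TLR4, 0.83 for TLR6, -0.38 for CD14 and 0.17 for MYD88. Fits without a library have fewer samples; the cause of the other changes was not tested. Whether the numbers in the titles pair the animals is not stated. Deviations of same-numbered libraries correlated at -0.39 to 0.34, and 1 of 6 matched its own number best. With 6 pairs of uneven depth and tissue makeup, these values cannot settle whether a pairing existed. In Sham 5, TLR2 stands on 3 counts, which limits its precision there.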

Other observations

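Several inflammatory genes were too low or too unevenly expressed to be tested, and are given as summed counts over 6 libraries. CCL2, a monocyte chemokine, had 325 counts in DHCA (5 to 157 a library) and 38 in Sham (0 to 35 a library). SOCS1, a feedback inhibitor of cytokine signalling, had 45 counts in DHCA (1 to 16 a library) and 8 in Sham (0 to 3 a library). CSF3, a growth factor of neutrophils, had 26 counts in DHCA and 11 in Sham. The calcium-binding ligands S100A8, S100A9 and S100A12 had 26, 45 and 24 counts in DHCA and 24, 17 and 9 in Sham. IL10, IL12B and IFNB1 had 5, 3 and 3 counts in DHCA and 10, 3 and 5 in Sham.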
